A study of Danio rerio with 5 samples.

Results

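The genes described here encode collagens and a matrilin of cartilage, skin and fin: COL2A1, col9a3, col11a1b, MATN4, COL5A1, col1a1a, COL1A2 and col14a1b. They were taken by symbol from the gene table of zebrafish cells sorted for a blood stem cell transgene. The 8 symbols matched 9 of 23628 gene ids, because the ids ENSDARG00000069093 and ENSDARG00000011407 both carry the symbol COL2A1. These are written COL2A1 (69093) and COL2A1 (11407), and the files do not say which zebrafish paralog each one is. Symbols are printed as the name table has them, some in human style, and a separate row named COL1A1 (ENSDARG00000035809) is not one of the 9. COL2A1, col9a3, col11a1b, MATN4 and COL5A1 were chosen by their measured levels in these same wells, as leading genes of a cluster, with the other collagens beside them, so their joint detection within wells is given as a description and carries no test.

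Embryos carrying runx1+23:mCherry, a transgene that labels hematopoietic stem and progenitor cells (HSPCs), had been injected with the irf8 morpholino, which blocks macrophage formation, or with a standard control (std) morpholino. Live mCherry+ cells were sorted singly into wells at 3 days post-fertilization and sequenced by SORT-seq, which counts transcripts by unique molecular identifiers (UMIs). On each of 5 plates, wells 1 to 188 held std cells and wells 189 to 384 held irf8 cells, so plate position and morpholino changed together and cannot be told apart. The study used these cells to ask how HSPCs differ when macrophages are absent.

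Fibrillar collagens are triple helices of 3 chains that assemble into the fibrils giving tissue its tensile strength. Type II collagen with types IX and XI builds cartilage and the notochord sheath, while type I with type V builds dermis and bone. In fish, collagens also build the fin fold and its elastic rays (actinotrichia). None of these genes is a usual product of blood stem cells, and the transgene's own transcript was not analysed here.

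Of 1920 wells, 933 had at least 1000 UMIs on genes and were kept, 466 of 980 irf8 wells and 467 of 940 std wells. The median kept well held 6414 UMIs in irf8 morphants and 4479 in std morphants. Wells were summed by plate and morpholino into 10 sums of 91111 to 2078160 estimated transcripts. The plate was the replicate (n = 5), and whether plates came from separate clutches is not stated, so the spread between them may be technical. Plates 3 and 5 stood apart, with 46 and 10 kept irf8 wells against 34 and 35 kept std wells, and only 2 of these wells were globin-rich. A single std well of plate 3 (well 64, with 261288 UMIs) gave 47.1% of its sum.

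The 9 gene ids took 23748 UMIs, 0.265% of all gene UMIs in kept wells, and a few wells held most of them. In 137 wells with at least 10 UMIs of these genes, 14.7% of those kept, lay 95.2% of their UMIs. At the other end, 300 wells had none. The label of these cells as HSPCs was checked against blood markers in the 137 wells. After thinning every well to 1000 UMIs, MYB, a transcription factor of blood stem cells, had a UMI in 0 of them. The share was 3.52% in the 796 other kept wells. A count of 0 was taken to allow up to 3 of the 137 wells, or 2.19%. That limit treats wells as independent, although they share plates, and rests on a single random draw. It is thus no test of a difference from 3.52%. Without thinning the MYB shares were 8.03% in the 137 wells and 11.7% in the others, at median depths of 12324 and 4876.5 UMIs. LMO2, another blood regulator, was seen after thinning in 3.65% of the 137 wells and 14.4% of the others (40.1% and 50.3% before it). FLI1, an endothelial and blood regulator, was seen in 2.92% and 2.51% (27.7% and 9.30% before it). Globins took at least 10% of UMIs in 548 kept wells. Of these, 32 were among the 137, and the rest made up most of the 796 others. The shares in the others thus rest largely on globin-rich wells, and shares without those wells were not counted. Of the 12 ids of the whole HSPC list, 8 had a lower share of wells after thinning in the 137 wells than in the others and 3 a higher one, among them hmga1a, a chromatin protein of dividing cells, at 70.1% and 41.0%. The list as a whole took 0.242% of UMIs in the 137 wells and 0.229% in the others. Most of that was hmga1a, with 17042 UMIs in kept wells against 989 of LMO2 and 736 of TAL1, the next highest. The summed share thus says little about the other ids.

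Free RNA can give stray UMIs, and red cells should not make these collagens. Among 548 globin-rich wells (at least 10% of UMIs on 7 embryonic globins), 60.9% had a UMI of any of the 9 ids, against 77.7% of the 385 other wells, at median depths of 4744 and 8223 UMIs. After thinning the shares were 23.2% and 43.9%. col1a1a, a type I collagen chain, had a UMI in 38.7% of globin-rich wells (95% Wilson interval 34.7 to 42.8) and 58.2% of the others (53.2 to 63.0), so a single col1a1a UMI said little about a well. These intervals cover counting error only. Plate 3 had 0 globin-rich wells and plate 5 had 2, so the groups differed by plate as well as by depth. By morpholino, col1a1a was detected in 58.8 to 90.0% of kept wells on plates 3 and 5. On plates 1, 2 and 4 it was detected in 19.9 to 58.7%. The groups were not compared within plates. Detection ran lower for the ids other than col1a1a, and col14a1b had a UMI in 2.01% of globin-rich wells against 9.61% of the others. For this reason the account turns on wells with several UMIs. Such wells were not free of globin: 32 of the globin-rich wells had at least 10 UMIs of the 9 ids. At least 10 UMIs of COL2A1 (69093) were in 6 globin-rich wells. These counts depend on the cut. With at least 20% of UMIs on globins, 496 wells were globin-rich and 58.1% of them had a UMI of any of the 9 ids. Only 11 of the 496 had at least 10 UMIs of the 9 ids, and 1 had at least 10 of COL2A1 (69093).

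COL2A1 (69093) and col9a3, a chain of the type IX collagen that decorates type II fibrils, moved together from well to well. Over the 933 kept wells the Pearson correlation of log2(counts per 10000 + 1) was 0.64, with 0.51 to 0.88 on single plates and 0.54 after thinning. Detection alone did not single out this pair. Of the 59 wells with a col9a3 UMI, 59.3% had COL2A1 (69093), 62.7% COL2A1 (11407) and 83.1% col1a1a. The correlation of col9a3 with COL2A1 (11407) was 0.41. MATN4, a matrilin that links matrix fibres, correlated by 0.50 with COL2A1 (69093) and by 0.54 with col9a3. Its values with COL2A1 (11407), COL5A1 and col11a1b were nearly as high, at 0.49, 0.46 and 0.45. After thinning MATN4 had 0.37 with COL2A1 (69093) and 0.35 with col9a3. Its thinned values with COL2A1 (11407), COL5A1 and col11a1b were 0.19, 0.31 and 0.29. Plates differed: on plate 5 MATN4 had 0.22 with COL2A1 (69093), 0.22 with col9a3 and 0.52 with COL2A1 (11407). COL2A1 (69093) correlated weakly with COL5A1 (0.23), COL1A2 (0.14), col1a1a (0.13) and col14a1b (-0.02). All correlations are across wells that share libraries and depth and carry no test.

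col11a1b and COL2A1 (11407) lay with the skin and bone collagens. col11a1b, a chain of type XI collagen, correlated by 0.73 with COL5A1 (0.69 to 0.75 on single plates) and by 0.30 with col9a3. COL2A1 (11407) correlated by 0.70 with COL5A1, a chain of the type V collagen that nucleates type I fibrils, and by 0.70 with COL1A2. Its correlation with COL2A1 (69093), the other id of the same symbol, was 0.38. After thinning these values were lower, at 0.50 for col11a1b with COL5A1, 0.47 for COL2A1 (11407) with COL5A1 and 0.23 for the pair of COL2A1 ids, and their order was the same.

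**Figure D1:**
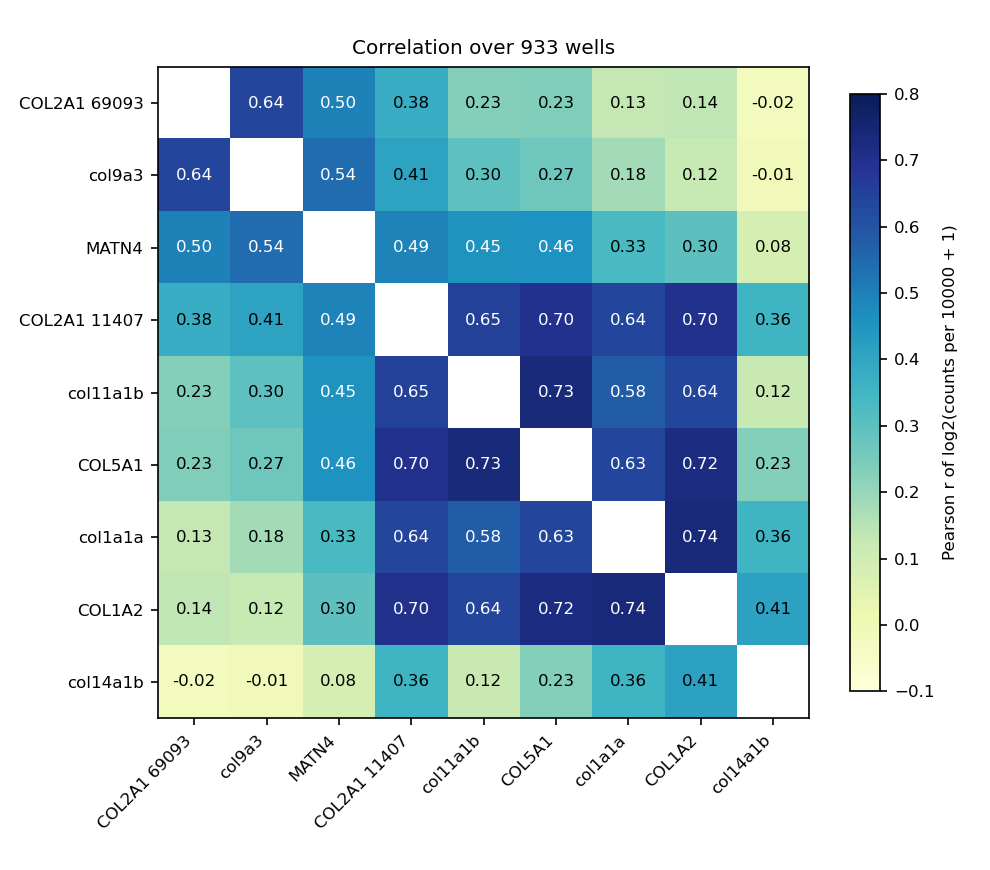
Pearson correlation of log2(counts per 10000 + 1) between each pair of the 9 gene ids over 933 kept wells, with darker squares for higher values. COL2A1 (69093), col9a3 and MATN4 form a block at 0.50 to 0.64, and the block of COL2A1 (11407), col11a1b, COL5A1, col1a1a and COL1A2 runs from 0.58 to 0.74. MATN4 lies between the blocks, with 0.49, 0.46 and 0.45 for COL2A1 (11407), COL5A1 and col11a1b.

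The type I chains col1a1a and COL1A2, which form 1 triple helix with a further chain, correlated by 0.74. Of 226 wells with a COL1A2 UMI, 82.3% also had col1a1a, while 42.7% of 436 col1a1a wells had COL1A2. col14a1b, a chain of a fibril-associated collagen, was the rarest of the 9, with a UMI in 48 wells. It correlated by 0.41 with COL1A2 and 0.36 with col1a1a.

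The 5 genes most like each of the 9 were sought among 13476 other genes with a UMI in at least 20 kept wells. For COL2A1 (69093) they were COL11A2 (r = 0.57), ENSDARG00000013930 (0.57), COL9A1 (0.57), COL9A2 (0.49) and COL11A1 (0.48). The same 5 came out for col9a3, led by COL11A2 at 0.69, and 4 of them are chains of the type IX and XI collagens of cartilage. For COL2A1 (11407) the list was SERPINH1, a chaperone of collagen folding (0.67), SPARC, a collagen-binding glycoprotein (0.66), COL1A1 (0.65), ENSDARG00000032724 (0.62) and COL12A1 (0.61).

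COL5A1 shared with it ENSDARG00000032724 (0.71), COL1A1 (0.69) and SERPINH1 (0.66), followed by FSTL1 (0.66) and ENSDARG00000016744 (0.65). col11a1b was most like ENSDARG00000032724 (0.69), TGFBI (0.69), FSTL1 (0.63), COL12A1 (0.62) and ENSDARG00000016744 (0.61). MATN4 stood between, with TGFBI (0.55), COL9A1 (0.53), FIBIN (0.51), TNC (0.50) and CCN1 (0.47). COL1A1 led for both type I chains, at 0.72 for col1a1a and 0.79 for COL1A2, with SPARC, ENSDARG00000061219, SERPINH1 and DCN, the small proteoglycan decorin, after it. col14a1b had another company: ENSDARG00000096582 (0.70), TP63 (0.69), the regulator of basal epidermis, lgals1l1 (0.68), cldni (0.64) and ENSDARG00000071576 (0.63).

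The wells rich in each COL2A1 id differed in what else they held. At a minimum of 5 UMIs, 79 wells had either id: 10 only COL2A1 (69093), 47 only COL2A1 (11407) and 22 both. In all 47 wells with only COL2A1 (11407), COL5A1, col1a1a and COL1A2 were detected, with 1309, 6341 and 2902 UMIs in total, and col11a1b was detected in 40. col9a3 was found in 5 of these 47 wells, with 10 UMIs. MATN4 was found in 24 of the 47, with 190 UMIs, and in 6 of the 10 wells with only COL2A1 (69093), with 26. In the 10 wells with only COL2A1 (69093), col1a1a was found in 8 with 29 UMIs, col9a3, COL5A1 and COL1A2 in 5 each with 14, 22 and 15 UMIs, and col14a1b in 0. A low count of COL2A1 (11407), 19 UMIs in all, was present in 9 of the 10. The 47 wells were deeper, with a median of 20222 UMIs against 7015.5 in the 10.

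**Figure D2:**
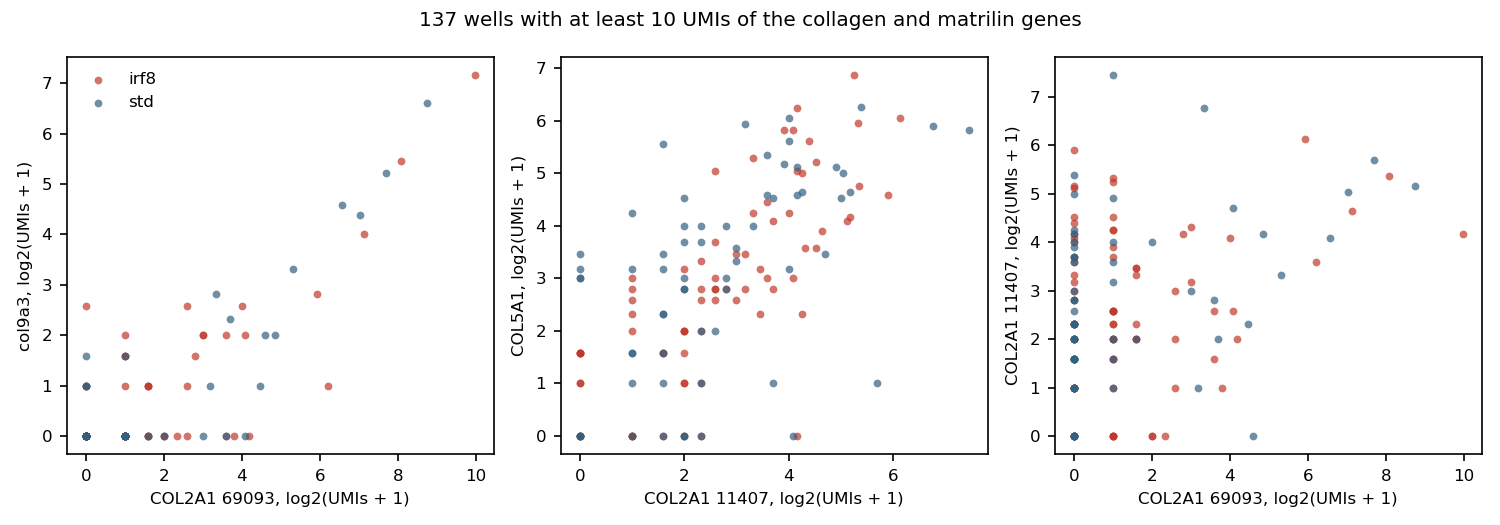
UMIs per well, as log2(UMIs + 1), in the 137 wells with at least 10 UMIs of the 9 gene ids; each point is a well, red for irf8 and blue for std morphants. COL2A1 (69093) and col9a3 rise together along a diagonal up to the irf8 well with 1001 and 142 UMIs, COL2A1 (11407) tracks COL5A1, and the plot of the pair of COL2A1 ids has many wells along the axis where COL2A1 (69093) is 0.

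Few wells carried the cartilage set at a high level. Of the 2913 UMIs of COL2A1 (69093), 34.4% came from 1 well and 83.5% from the 10 richest, and 66.5% of the 206 wells that had it held a single UMI. MATN4 and col9a3 were concentrated likewise, with 35.4% and 29.5% of their UMIs in the richest well. COL5A1 was spread most evenly, with 5.38% in its richest well.

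The richest COL2A1 (69093) well was an irf8 well of plate 1 (well 297, 12324 UMIs) with 1001 UMIs of that id, 142 of col9a3, 24 of MATN4 and 0 of col11a1b, COL5A1, col1a1a, COL1A2 and col14a1b. It also held 536 UMIs of col9a1b, 504 of COL11A1, 314 of MATN3 (the id ENSDARG00000069245) and 168 of epyc, and its genes of the cartilage list took 17.5% of its UMIs. In the same well were 191 UMIs of cmn (calymmin, a notochord sheath protein), 49 of col8a1a and 14 of SHH (the id ENSDARG00000068567), the signal made by the notochord. TBXT, noto, COL8A1 and the other SHH id of the notochord list were at 0, and ntd5 was at 1. The notochord list took 3.43% of the well's UMIs, or 2.07% without epyc, which is also in the cartilage list. No other of the 22 wells with at least 10 UMIs of COL2A1 (69093) had a cmn UMI. Type II collagen is also made by the notochord, so this well carried some markers of both tissues.

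Other wells rich in COL2A1 (69093) had cartilage genes without cmn. A std well of plate 5 (well 4, 4920 UMIs) had 205 UMIs of COL2A1 (69093) and 36 of col9a3, with 86 of MATN1, a cartilage matrilin, 43 of COL9A1 and 20 of UCMA, a cartilage growth plate protein. A std well of plate 4 (well 33) had 93 UMIs of COL2A1 (69093), 36 of acana, the aggrecan core protein, 15 of snorc and 7 of SOX9, the master regulator of cartilage. Globins took 12.9% of the UMIs of well 33, which made it globin-rich. In a std well of plate 2 (well 11, 39663 UMIs), 427 UMIs of COL2A1 (69093) stood beside 338 of MATN4 and 97 of col9a3, with 0 of col1a1a and COL1A2. The wells were chosen for print after their values were seen.

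Some wells held UMIs of both sets, to differing degrees. Well 11 of plate 2, named above, also had 24 UMIs of COL5A1 and 16 of col11a1b, with 37 of hapln1a, a link protein, and 35 of TNC (tenascin C). A std well of plate 4 (well 51) had 129 UMIs of COL2A1 (69093), 67 of MATN4, 31 of COL5A1, 29 of col11a1b and 14 of col1a1a, with 41 of hapln1a and 30 of TNC. An irf8 well of plate 1 (well 373) had 138, 66, 14, 23 and 1 UMIs of the same 5 ids and 0 of COL1A2. Globins took 15.8% of the UMIs of well 373, so it was globin-rich. An irf8 well of plate 2 (well 255) had 817 UMIs of COL10A1, a collagen of hypertrophic cartilage and, in fish, of bone-forming cells, and 5 of SP7, an osteoblast regulator, beside 195 of col1a1a, 103 of COL1A2 and 29 of col11a1b. Well 255 had 1 UMI of COL2A1 (69093) and 0 of col9a3 and MATN4, so it held almost nothing of these ids. It also had 3 UMIs of COL2A1 (11407), 63 of COL11A1 and 13 of COL11A2. With COL2A1 (11407) and col11a1b counted as cartilage, as in the looser rule further on, it falls among wells with both patterns.

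**Figure D3:**
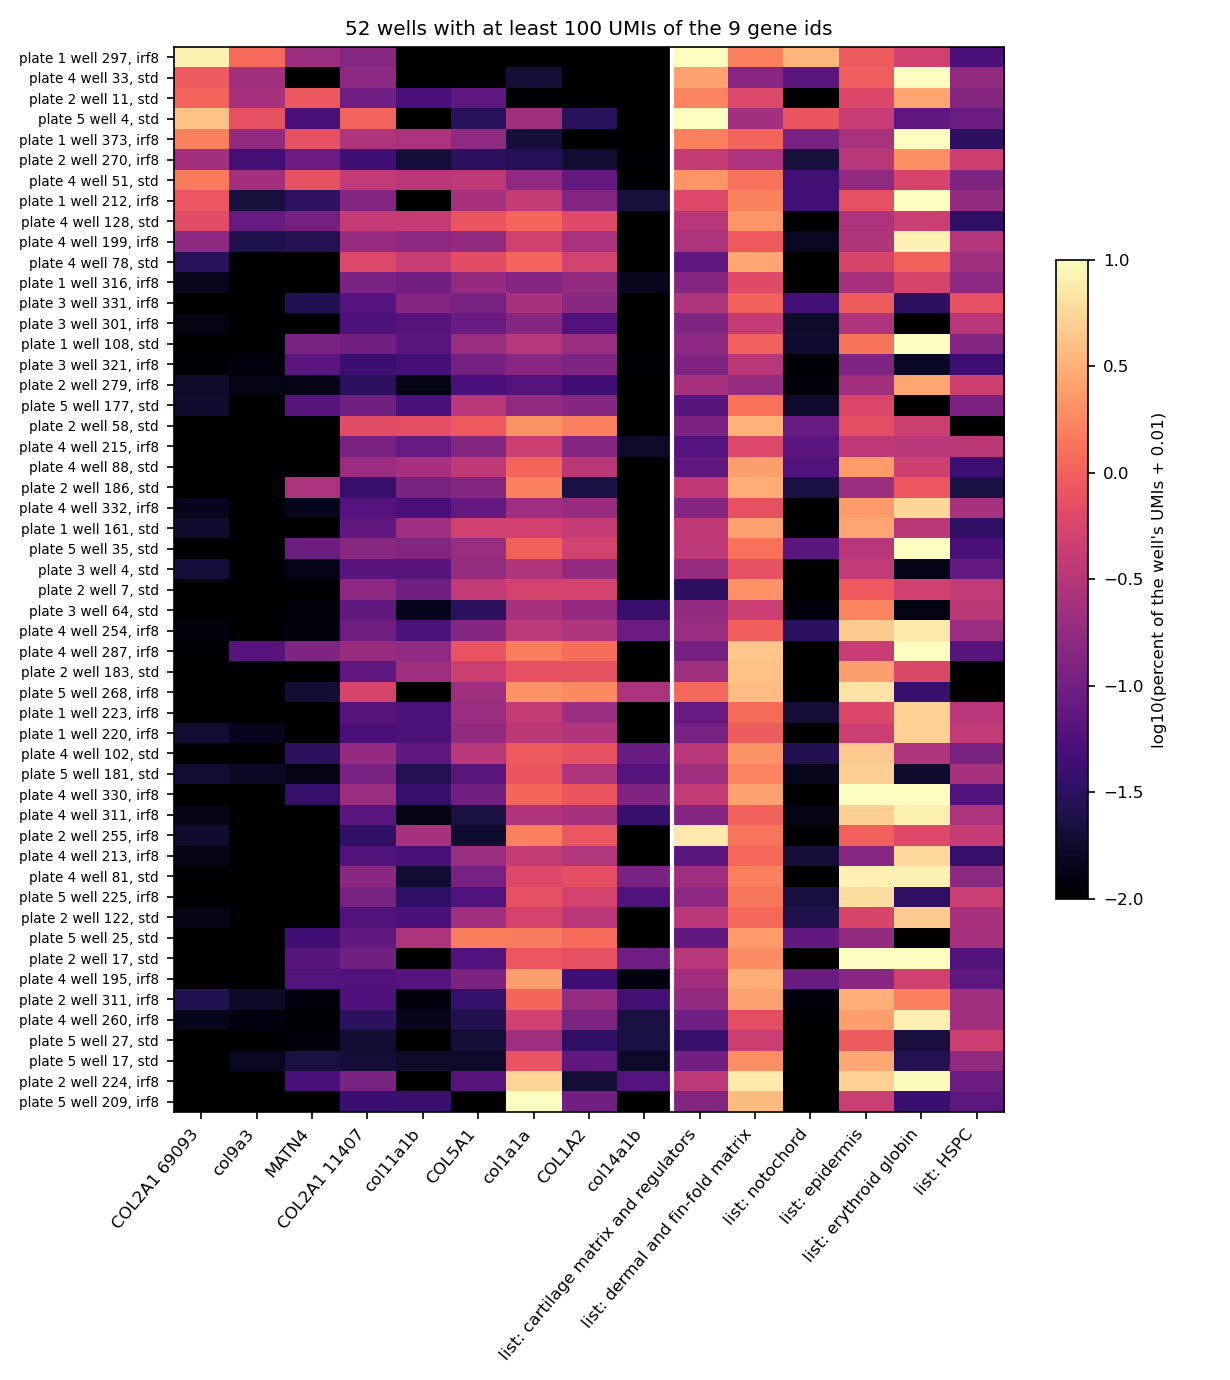
The 52 wells with at least 100 UMIs of the 9 gene ids (27 irf8 and 25 std), as rows, sorted by the cartilage genes' share of those UMIs; colour gives log10(percent of the well's UMIs + 0.01). Columns left of the white line are the 9 ids and those right of it are marker lists without them; the wells at the top have the cartilage list high, and many wells with col14a1b, in the lower part, have the epidermis list high.

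col14a1b sat in wells with epidermal genes. In the 16 wells with at least 5 of its UMIs (9 irf8, 7 std, all 5 plates), cldni, a claudin of epidermal junctions, and krt5 were detected in 16 and TP63 in 15. Among all 137 wells with at least 10 UMIs of the 9 ids, cldni was detected in 27.0%, krt5 in 61.3% and TP63 in 16.8%, while krt4 was detected in 98.5% and so marked no kind of well. The 137 include the 16, and depth was not made equal for these shares. TP63 and cldni were already among the genes most like col14a1b over the kept wells, so their detection here is no separate evidence. The median of the epidermis list, genes of skin keratins and junctions, was 4.83% of UMIs in the 16 wells and 0.481% in the 137. Type I collagen was there as well, with a median of 212 UMIs of col1a1a and 126.5 of COL1A2. COL2A1 (69093) was detected in 6 of the 16 and col9a3 in 3. In an irf8 well of plate 5 (well 268) 28 UMIs of col14a1b stood beside 228 of col1a1a, 275 of krt4 and 160 of krt5.

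Most wells rich in col1a1a also had COL1A2. Of 84 wells with at least 10 UMIs of col1a1a, 82 had COL1A2, and the median ratio of col1a1a to COL1A2 UMIs was 1.94. In 11 wells (5 irf8, 6 std, on 4 plates) col1a1a was at least 10 times COL1A2, counting a COL1A2 of 0 as 1 UMI. Of these 11 wells, 9 had a UMI of and1, and2 or and3, the actinodins that build actinotrichia in the fin fold of fish, and 7 had at least 10. Actinodins were not particular to these wells. A std well of plate 5 (well 181) had 273 UMIs of COL1A2 with 264 of and1, 141 of and2 and 327 of and3. An irf8 well of plate 2 (well 311) had 75 of COL1A2 with 147, 137 and 440. The share with actinodins among the other wells rich in col1a1a was not counted.

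The plainest case of col1a1a with little COL1A2 was an irf8 well of plate 2 (well 224). It had 1091 UMIs of col1a1a, 2 of COL1A2, 612 of and1, 475 of and3 and 498 of krt4. An irf8 well of plate 4 (well 195) had 1060 UMIs of col1a1a, 14 of COL1A2 and 658 of and2, and an irf8 well of plate 5 (well 209) had 343, 3 and 53. Among the 57 wells with at least 10 UMIs of COL1A2, which include well 195 of plate 4, and1 was detected in 18 and the median was 0 UMIs. This count is of and1 alone. It cannot be set beside the 9 of 11 wells, which had any of and1, and2 or and3. COL1A1, the other type I row, was detected in all 57, with a median of 39 UMIs.

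The 137 wells were also divided by the share of the 9 ids' UMIs that came from the genes listed as cartilage (both COL2A1 ids, col9a3, col11a1b and MATN4), a list that holds COL2A1 (11407) and col11a1b although their levels followed COL5A1. The share was over 50% in 26 wells, 14 irf8 and 12 std, between 10 and 40% in 76 and under 10% in 27, with a median of 20.7%, so the wells formed a range and not separate groups. The division fixes the direction of the sums that follow, which are given as a description. In the 26 wells lay 2556 UMIs of COL2A1 (69093) and 415 of col9a3, against 188 and 44 in the other 111. The 111 held 9567 UMIs of col1a1a, 3891 of COL1A2, 1829 of COL5A1, 1280 of COL2A1 (11407) and 677 of col11a1b, against 161, 68, 200, 319 and 114 in the 26. The cartilage list without these genes had a median of 0.604% of UMIs in the 26 wells and 0.119% in the 111, and the dermal and fin-fold list had 0.269% and 0.638%. In 1 of the 26 wells COL2A1 (69093), col9a3 and MATN4 were all at 0. With only those 3 ids counted as cartilage, a choice made after seeing the data, 16 wells had a share over 50% (7 irf8, 9 std) and 87 a share under 10%, and the cartilage list had a median of 1.28% in the 16 and 0.121% in the others.

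By a looser rule, which keeps the listed names, a well had the cartilage pattern if at least 2 of COL2A1, col9a3, col11a1b and MATN4 had a UMI, and the fibrillar pattern if at least 2 of COL5A1, col1a1a, COL1A2 and col14a1b did. Of the 933 wells, 30 had the cartilage pattern only, 127 the fibrillar pattern only, 110 both and 666 neither. Median depth was 6194.5, 8131, 14452.5 and 4616.5 UMIs in these classes. Wells with both thus were the deepest, and after thinning to 1000 UMIs the counts were 15, 59, 29 and 830. Of wells with the cartilage pattern 78.6% also had the fibrillar pattern, and 65.9% after thinning. The rule itself fixes part of this overlap. It counts COL2A1 (11407) and col11a1b as cartilage, although they correlated by 0.70 and 0.73 with COL5A1. A well with the skin and bone collagens can thus have both patterns without COL2A1 (69093), col9a3 or MATN4. The overlap with only those 3 ids counted as cartilage was not tested.

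Cartilage genes outside the set were compared between these classes. COL11A1 had 29.0 UMIs per 10000 in cartilage-only wells, 0.844 in fibrillar-only wells, 5.68 in wells with both and 0.210 in wells with neither. COL9A2 had 18.6, 0.477, 1.90 and 0.471 in the same order. The well of plate 1 with cmn held 504 of the 814 COL11A1 UMIs of the 30 cartilage-only wells. Without it, an alternative chosen after seeing the data, COL11A1 had 11.6 per 10000 and COL9A2 had 9.58 in cartilage-only wells. COL11A1 was detected in 50.0% of cartilage-only wells and 70.0% of wells with both, and the cartilage list had a median of 0.0426% of UMIs in cartilage-only wells, 0.0357% in fibrillar-only wells and 0.145% in wells with both. COL1A1 had 0.926 per 10000 in cartilage-only wells, 1.98 in fibrillar-only wells and 16.7 in wells with both, and and2 had 0, 0.180 and 5.87. Globin was high where both patterns were missing, with a median of 31.6% of UMIs against 1.11% in wells with both. The median was 8.44% in fibrillar-only wells and 1.58% in cartilage-only wells. Plate was not held equal. Wells with both were most frequent on plates 3 and 5, which had almost no globin-rich wells.

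Between morpholinos the 9 ids were compared in the 10 sums with the plate as a block, by edgeR's quasi-likelihood test. In such sums fewer cells of a kind and less RNA per cell cannot be told apart. Of the 9 ids, 0 were called at an adjusted p of 0.05 (Benjamini-Hochberg over all genes tested) and 0 had an unadjusted p under 0.05, where 1 of 7141 genes tested was called (0.0140%) and 671 had such an unadjusted p. DESeq2 also called 0 of the 9, where it called 3.02% of all genes, as did edgeR for the 5 ids with at least 10 counts in every sum, where 9.60% were called. Leaving out single plates gave 0 calls of the 9 each time, with at most 0.0121% of all genes called. In simulated counts of this size the test called 0 of 200 genes changed by 1 on the log2 scale, so a difference of that size was not detectable by it.

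col1a1a came nearest. It had 317, 1349, 702, 1360 and 9691 CPM (counts scaled to a common library total) in irf8 morphants on plates 1 to 5, against 147, 859, 1388, 725 and 3272 CPM in std morphants. The irf8 value lay above the std value on 4 of 5 plates, plate 3 being the exception, and the groups overlapped. Single wells weighed on all of these sums. In irf8 morphants the richest well gave 30.3%, 53.8%, 41.6%, 40.3% and 40.2% of the col1a1a UMIs on plates 1 to 5. In std morphants it gave 34.5%, 23.9%, 80.0%, 32.7% and 49.6%. The log2 fold change was 0.65 (SE 0.33, edgeR adjusted p = 0.600), and 1.02 without plate 3 (adjusted p = 0.407). With every well thinned to 1000 UMIs it was 1.07 with an adjusted p of 0.0390, where 9.81% of 1070 genes tested were called, and with no filter on low counts 0.67 with 0.0476, where 1.52% of 23467 were called.

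COL2A1 (69093) had 1165, 202, 95.4, 68.8 and 22.0 CPM in irf8 morphants on plates 1 to 5, against 54.4, 650.1, 105, 307 and 426 CPM in std morphants. The irf8 value lay below the std value on 4 of 5 plates, with plate 1 the exception, and the log2 fold change was -0.95 (SE 1.06, edgeR adjusted p = 0.843). Single wells set these values: on plate 1 the well with cmn gave 78.8% of the irf8 UMIs, while on plates 2 and 5 single wells gave 88.4% and 89.9% of the std UMIs. col9a3 had 139, 33.8, 19.1, 14.4 and 11.0 CPM in irf8 morphants and 5.86, 133, 18.6, 52.0 and 87.8 CPM in std morphants, at a log2 fold change of -0.59 (SE 0.98). MATN4 had 82.9, 79.0, 154, 34.2 and 22.0 CPM in irf8 morphants and 30.2, 521, 35.5, 91.0 and 62.2 CPM in std morphants, at -0.37 (SE 0.78).

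The fibrillar genes other than col1a1a had no common direction. COL1A2 had 210.1, 184, 444, 425 and 4313 CPM in irf8 morphants and 98.01, 504, 989, 521 and 915 CPM in std morphants, with a log2 fold change of 0.04 (SE 0.51). COL5A1 ranged from 118 to 571 CPM in irf8 morphants and from 119 to 466 CPM in std morphants, at -0.13 (SE 0.29), and its groups overlapped nearly in full. col14a1b ranged from 7.38 to 483 CPM in irf8 morphants and from 1.68 to 135 CPM in std morphants, at -0.18 (SE 0.71).

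COL2A1 (11407) ranged from 98.3 to 1185 CPM in irf8 morphants and from 42.7 to 432 CPM in std morphants, at a log2 fold change of 0.05 (SE 0.40). col11a1b ranged from 58.5 to 198 CPM in irf8 morphants and from 43.6 to 118 CPM in std morphants, at 0.24 (SE 0.35). Both overlapped between the groups. The direction of 7 of the 9 fold changes turned under at least 1 alternative setting, all but col1a1a and COL2A1 (69093), and none of those turned values was called.

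**Figure D4:**
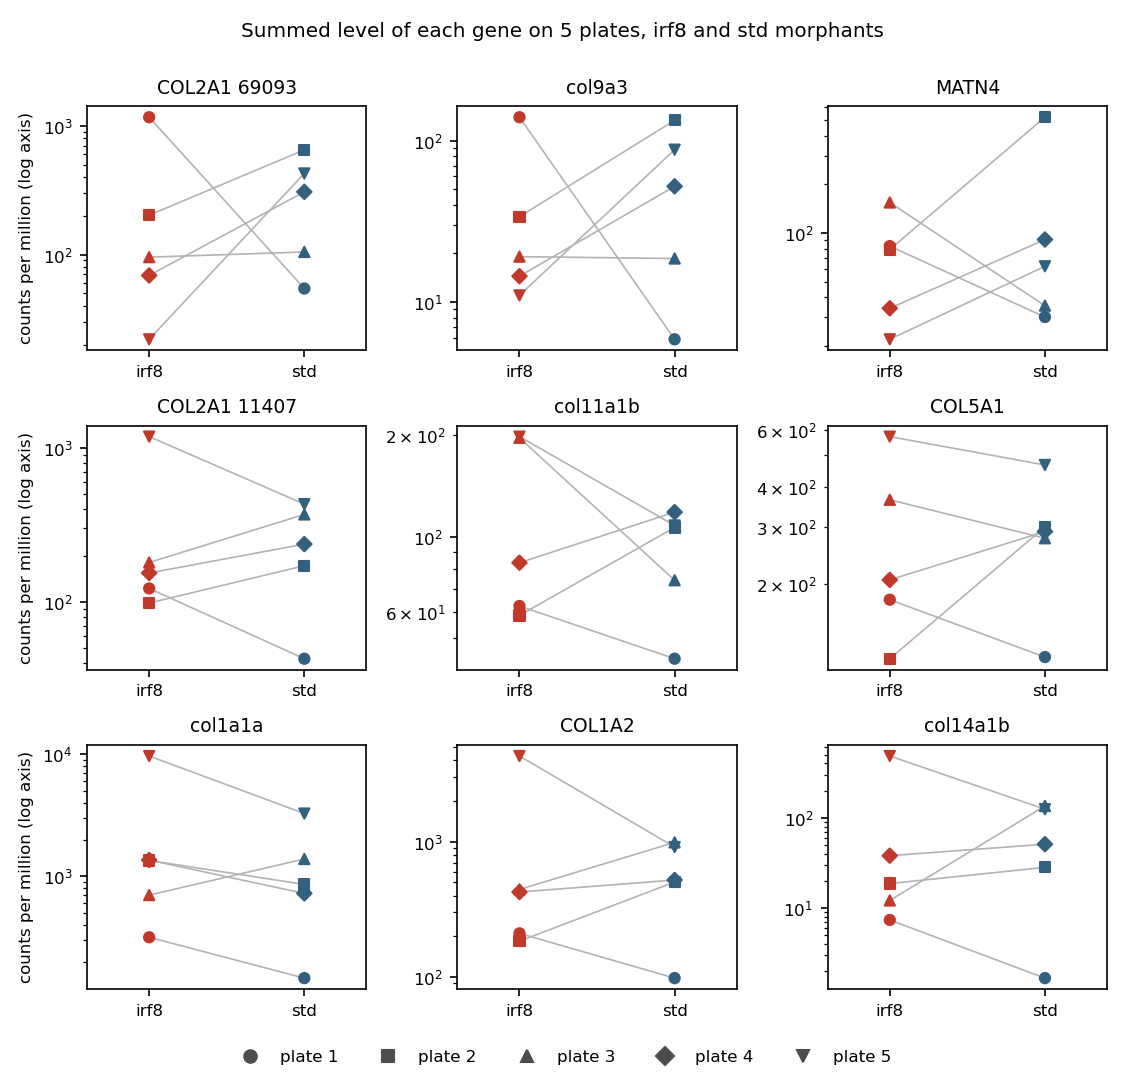
Level of each of the 9 gene ids in the 10 sums, in CPM on a log axis; each marker shape is a plate, and grey lines join the irf8 and std sums of a plate. COL2A1 (69093) and col9a3 have irf8 above std on plate 1 and below or level on the others, col1a1a has irf8 above std on 4 of 5 plates, and plate 5 is the highest for col1a1a in both morpholinos.

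Related genes showed no call either. Of the cartilage list 11 of 28 ids passed the filter on low counts, 0 were called and the median log2 fold change was 0.03, against -0.03 over all genes tested. For the dermal and fin-fold list (19 of 35 tested) the median was -0.05 and for the collagen processing list of chaperones and hydroxylases (17 of 34 tested, 12 above 0 and 5 below) it was 0.25, with 0 called in each. The medians of some other tissues lay further from 0: all 13 muscle genes tested were above 0, with a median of 2.22, and 14 of 15 epidermis genes were below 0, with a median of -0.55, again with 0 called. The muscle list took 0.544 to 5.78% of UMIs over the irf8 sums and 0.158 to 3.40% over the std sums, and the epidermis list 0.247 to 3.32% and 0.841 to 4.07%. As summed shares both lists were higher in irf8 on 3 of 5 plates, so for epidermis the summed share (median 1.04% in irf8 and 0.903% in std) and the fold changes differ in sign. At 0 were 1 muscle gene in irf8 wells and no epidermis gene, and the part of these tissues in the collagen values was not tested.

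Plates were compared in the same fit. Of all genes tested 103 (1.44%) differed between plates at an adjusted p of 0.05, and of the 9 ids only col1a1a did (edgeR adjusted p = 0.0405). Plate 5 was highest in both morpholinos and plate 1 lowest, as the CPM values above show. Wells with at least 10 UMIs of the 9 ids were 12.8%, 11.3%, 28.3%, 16.8% and 50.0% of kept irf8 wells on plates 1 to 5, and 5.96%, 11.1%, 26.5%, 10.8% and 51.4% of kept std wells. The call was lost without plate 1 (edgeR adjusted p = 0.220), 2 (0.0766), 4 (0.0825) or 5 (0.187) and kept without plate 3 (0.0479), where 1.21%, 0.651%, 0.519%, 1.14% and 0.0244% of all genes were called. It was also lost without the well richest in these genes of each sum (0.0686, 1.06% called), a setting chosen after seeing the data. DESeq2 called 4 of the 9 between plates (11.0% of all genes), edgeR with no filter 7 of 9 (5.71%), with thinned wells 3 of 6 tested (18.7%) and with at least 10 counts in every sum 0 of 5 tested (0.927%). Plate 5, with 45 kept wells, had the fewest globin-rich wells but for plate 3, and their part in this was not tested.

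The share of wells with both patterns was 21.5% ± 16.6 in irf8 morphants and 15.6% ± 14.5 in std morphants (SD, n = 5 plates each), higher in irf8 on 5 of 5 plates. With every well thinned to 1000 UMIs it was 2.01% ± 1.70 in irf8 morphants and 6.28% ± 5.19 in std morphants, and lower in irf8 on 5 of 5 plates. The thinned shares rest on few wells and a single random draw. On plates 1 to 5 they were 1, 3, 2, 4 and 0 irf8 wells (10 in all) against 4, 3, 3, 4 and 5 std wells (19 in all). The direction of this share thus differed between all UMIs and equal depth. In both counts COL2A1 (11407) and col11a1b stood as cartilage, so some wells with both may hold only skin and bone collagens and these ids. Median depth was greater in irf8 wells on plates 1, 2 and 4 (6050, 6041 and 7835 UMIs, against 4295, 4250 and 4609.5 in std wells) and lower on plates 3 and 5 (3706 and 4725, against 5328.5 and 5989), and its part in the change of direction was not tested. Wells with the fibrillar pattern only made up 17.5% ± 4.86 in irf8 morphants and 16.0% ± 9.52 in std morphants, and those with the cartilage pattern only 5.07% ± 3.21 and 3.91% ± 2.92.

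**Figure D5:**
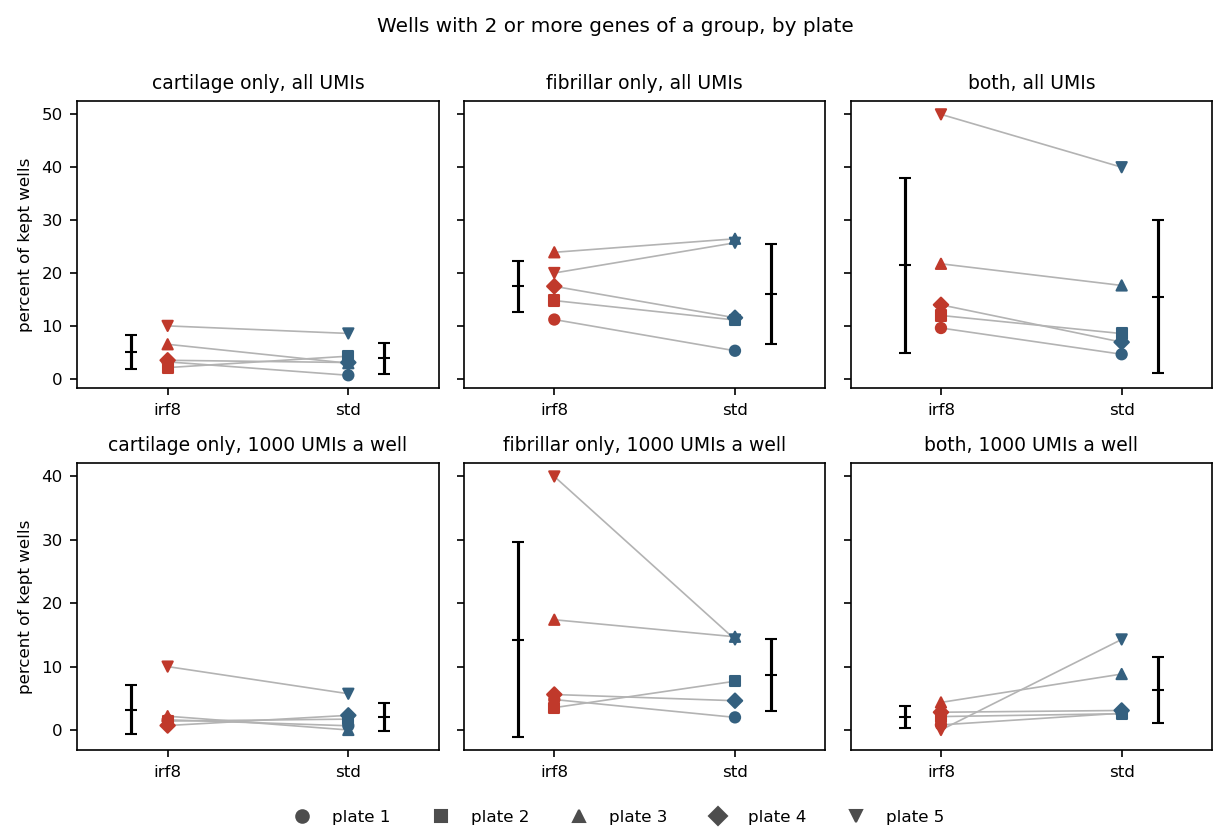
Percent of kept wells with the cartilage pattern only, the fibrillar pattern only or both, by plate (marker shape) in irf8 and std morphants, with all UMIs in the upper row and 1000 UMIs a well in the lower; black bars are means with SD over 5 plates. The share with both is higher in irf8 on every plate in the upper row and lower in irf8 on every plate in the lower row. In the lower row only 10 irf8 and 19 std wells had both.

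Detection of single genes after thinning averaged higher in irf8 wells for 7 of the 9 ids and lower for MATN4 and COL2A1 (69093). Single plates did not all follow these means. Thinned detection was higher in irf8 on 4 of 5 plates for COL5A1 and on 3 for COL1A2 and COL2A1 (11407). For col9a3, col11a1b and col14a1b it was higher in irf8 on only 2 of 5. col1a1a had a UMI in 61.2% ± 21.4 of irf8 wells and 50.1% ± 22.0 of std wells, higher in irf8 on 5 of 5 plates, and after thinning in 29.5% ± 20.1 and 24.3% ± 15.6, higher on 4 of 5. MATN4 had a UMI in 13.1% ± 4.79 of irf8 wells and 13.1% ± 8.23 of std wells, and after thinning in 1.75% ± 1.66 and 4.89% ± 2.47, higher in irf8 on 0 of 5 plates. COL2A1 (69093) was detected after thinning in 8.72% ± 5.30 of irf8 wells and 10.2% ± 6.34 of std wells, higher in irf8 on 1 of 5.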

How the data were processed

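Cells of 5 SORT-seq plates were analysed. The authors deposited estimated counts, that is UMIs per gene and well corrected for collisions among 4096 possible UMIs and not scaled for depth. Inverting the correction gave whole UMIs for 100% of values (tolerance 1e-06). The submitters' notes name BWA, GRCz11 and Seurat; versions are not given in the sources used here. Spike-ins, 6.67% of kept-well UMIs, were left out. Gene names came from an Ensembl name table, matching 18186 of 23628 ids. The position table at hand was of another build, so no positions are given.

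Wells with at least 1000 UMIs were kept. No doublet caller was run on singly sorted cells, and the 384 well numbers recur on every plate, so a cell is a plate and a well. Estimated counts were summed per plate and morpholino, rounded and filtered with filterByExpr. Under R 4.3.3, edgeR 4.0.16 scaled them by TMM and tested them by quasi-likelihood, plate being a block, with adjusted p-values (Benjamini-Hochberg) read at 0.05. The labels put both morpholinos on each plate, and the 2 sums of a plate deviated together across genes (correlations of 0.207, 0.335, 0.345, 0.332 and 0.131 for plates 1 to 5). Of 200 genes changed in simulated counts, it called 0, 147 and 163 where the log2 change was 1, 2 and 4. Fold changes are irf8 over std. CPM was computed from the sums.

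Members and lists were chosen with earlier results of these data known. Named genes are the 9 ids, up to 3 genes per list with the most UMIs and the 5 genes most like each id; others were chosen after their values were seen. Alternatives covered DESeq2 1.42.0, filters, UMI minima of 500 and 2000, thinning, the largest wells, the block and each plate. IRF8 gave 12 UMIs in irf8 wells and 4 in std wells, too few to check the labels.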

Additional observations from a re-analysis of the deposited data

Results flagged for a closer look

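Of 34 groups of 5 plates examined for a value far from the others, 8 had one. Chance flags about 1 in 20 groups of independent, normally distributed values. These groups share wells and some values came mostly from a single well, so the 8 cannot be read against that rate. In irf8 morphants, plate 5 stood above the others for COL2A1 (11407) at 1185 CPM (others 98.3 to 180.3), col1a1a at 9691 CPM (others 317 to 1360), COL1A2 at 4313 CPM (others 184 to 444) and col14a1b at 482.9 CPM (others 7.38 to 38.0). That sum holds 10 kept wells. Plate 1 stood above the others in irf8 morphants for COL2A1 (69093) at 1165 CPM (others 22.0 to 202) and col9a3 at 139.5 CPM (others 11.0 to 33.8), 78.8% and 85.0% of it from a single well. MATN4 on plate 2 of std morphants had 520.6 CPM (others 30.2 to 91.0), 86.4% of it from a single well. Wells with the cartilage pattern only, after thinning, were 10.0% of the irf8 wells of plate 5 (others 0.699 to 2.17%). Outside the kept wells, the 987 wells under 1000 UMIs held 595 UMIs of the 9 ids, 0.333% of their gene UMIs, against 0.265% in kept wells.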

How the results depend on the processing

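The count of genes called between morpholinos, 1, was 216 with DESeq2, 356 unfiltered, 114 with a stricter filter (10 or more counts per sum), 105 with thinned wells, 0 without the top 2% of wells by UMIs and 0 without the well richest in the 9 ids of each sum (an alternative chosen after seeing the data), and 0 to 1 leaving out single plates. With no replicate block for the plate it was 0, and the fold change of col14a1b turned to 0.23; the block changed no other direction or call among the 9 ids. Between plates the count of 103 was 786, 1339, 11 and 200 with DESeq2, no filter, the stricter filter and thinning, and 2 to 94 leaving out single plates. Of the 9 ids, 1 was called between morpholinos with no filter and 1 with thinning (col1a1a both times), and 0 leaving out single plates. Between plates 4, 7, 0 and 3 were called with DESeq2, no filter, the stricter filter and thinning, 0 without the richest wells and 0 to 1 leaving out single plates.

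Directions turned for col11a1b (-0.20 thinned, -0.0218 without the top 2% of wells) and col14a1b (1.16 without the top 2% of wells, 0.66 without the richest wells). Leaving out single plates, log2 fold changes ran from -0.0559 to 0.54 for col11a1b, -0.25 to 0.34 for COL2A1 (11407), -0.27 to 0.18 for COL5A1, -1.07 to 0.35 for MATN4, -0.43 to 0.45 for COL1A2, -1.54 to 0.0199 for col9a3, -0.79 to 0.54 for col14a1b, 0.48 to 1.02 for col1a1a and -1.79 to -0.25 for COL2A1 (69093). The cartilage pattern was more frequent in irf8 than in std wells by 7.07 percentage points (5.98 to 8.52 leaving out single plates), but the difference was -0.42 with 3 of 4 genes needed, -3.17 thinned and 0.24 at 500 UMIs. The fibrillar difference of 7.36 (5.95 to 8.82) was 1.35, 1.34 and 0.60 in the same order. The mean share per plate was 48.7% (cartilage) and 63.3% (fibrillar) with 1 of 4 genes needed, against 22.4% (15.3 to 25.9) and 35.1% (27.2 to 40.1). The cause was not tested. Precision is limited by the 5 plates and by the 10 wells of 1 sum.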
